A study of Homo sapiens with 8 samples.

Results

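Of 60332 genes listed in the deposited table of RD-ES and SK-N-MC cells, 88 code for potassium channel subunits. They were taken by gene symbol, as the KCNA, KCNAB, KCNB, KCNC, KCND, KCNE, KCNF, KCNG, KCNH, KCNJ, KCNK, KCNMA, KCNMB, KCNN, KCNQ, KCNS, KCNT, KCNU and KCNV families with the exception of KCNE3. The rule names symbols only, but it was set with earlier results of these data known. RD-ES and SK-N-MC are established cell lines of Ewing sarcoma, a tumor of bone and soft tissue driven by a fusion of EWSR1 with an ETS transcription factor gene. RNA was sequenced from 4 groups of 2 libraries each, 8 libraries in all. RD-ES control and SK-N-MC control cells carried an empty lentiviral dCas9-KRAB by the sample labels, whereas the study's text calls them parental. RD-ES eKD2 and SK-N-MC eKD2 cells carried dCas9-KRAB, a nuclease-dead Cas9 fused to a repressor domain, with a guide that directs it to the flank of a GGAA repeat in the LOXHD1 enhancer. Virus was added at a multiplicity of 10, and infected cells were kept under puromycin (1 µg/ml) over 3 days and used no more than 5 passages later, with no cloning step described. The study describes both lines as positive for the EWSR1::FLI1 fusion, which the controls therefore carry too, and no age was given. The duplicates were called biological by the study, but nothing in the labels says how separate the cultures were, so that p-values measure only the spread between these libraries.

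Potassium channels let potassium ions leave or enter the cell along their gradient and thereby set the membrane potential. Voltage-gated (Kv) channels open on depolarization and are built from 4 pore-forming subunits, to which modifier subunits that form no channel by themselves, cytoplasmic beta subunits and small MinK-related subunits can be added. Calcium- or sodium-activated channels open when these ions rise inside the cell, inwardly rectifying (Kir) channels hold the resting potential, and tandem pore domain (K2P) channels carry background leak. In excitable tissues these proteins shape action potentials, and in tumor cells they have been studied for their links to membrane potential, volume and proliferation.

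The guide of eKD2 lies beside a GGAA repeat, the kind of sequence at which the Ewing fusion protein binds, so the repeats near the members are given first. Within 100 kb of the outermost annotated start (GRCh37), 56 of 88 members (63.6%) had a run of at least 4 tandem GGAA units on either strand, beside 54.5% of 20163 protein-coding gene starts. A run of at least 9 units lay near 18 members (20.5%), beside 20.6% of all starts. Of the 23 members with enough signal to be tested, 16 had a run of at least 4 units and 7 a run of at least 9. The share among all genes with enough signal was not computed, so these counts have no matching background. For the 4 members of highest mean level over all libraries, KCNN1, KCNAB3, KCNE4 and KCNA2, the longest run is printed below because these stand first among the 88 members by mean level. Each line reads 5′ to 3′ on the strand that carries GGAA, with the tandem units in capitals and 20 flanking bases on each side in lower case, and none of the runs falls in an annotated exon.
KCNN1, chr19:18076815-18076910, minus strand, 14 units: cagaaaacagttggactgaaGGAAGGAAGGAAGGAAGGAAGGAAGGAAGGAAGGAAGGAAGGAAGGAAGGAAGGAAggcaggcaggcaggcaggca
KCNA2, chr1:111153622-111153713, plus strand, 13 units: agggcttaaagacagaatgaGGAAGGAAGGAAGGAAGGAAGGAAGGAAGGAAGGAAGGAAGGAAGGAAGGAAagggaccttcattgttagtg
KCNE4, chr2:223906640-223906711, minus strand, 8 units: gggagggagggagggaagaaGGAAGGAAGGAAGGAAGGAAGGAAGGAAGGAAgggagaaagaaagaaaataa
KCNAB3, chr17:7823715-7823774, minus strand, 5 units: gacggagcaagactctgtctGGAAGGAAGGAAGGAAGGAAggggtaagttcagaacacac

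The KCNN1 run lies inside the gene (chr19:18062102-18110894, plus strand), 14.7 kb from its outermost start. The KCNA2 run likewise lies in an intron of its gene (chr1:111062459-111174096, minus strand), 20.4 kb from the start, and the same run is within the window of KCNA3 and KCNA10, both of which were listed at 0 in all 8 libraries. Upstream of KCNE4 (chr2:223916908-224063117, plus strand) the run is 10.2 kb from the start. The KCNAB3 run is 9.42 kb from the start and past the other end of the gene (chr17:7825177-7833174, minus strand). Whether any of these runs is bound in the cells was not measured here. The study's list of Ewing-specific genes holds KCNA2 and KCNAB3. That list required a peak of EWSR1::FLI1 binding within 100 kb of the start, in earlier data that included SK-N-MC. Whether such peaks fall on the runs printed above was not examined.

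LOXHD1, the gene whose enhancer was targeted, was at 21.4 and 21.2 FPKM (fragments scaled for transcript length and for the size of the library, the unit of the deposited table) in RD-ES control, against 1.04 and 1.02 FPKM in the eKD2 cells of that line. The SK-N-MC controls held 159 and 169 FPKM, their eKD2 counterparts 11 and 12 FPKM. On the log2(FPKM + 1) scale LOXHD1 fell by 3.46 ± 0.0782 (SE) in RD-ES (adjusted p = 0.000113 by limma), while in SK-N-MC LOXHD1 fell by 3.73 ± 0.0782 (adjusted p = 3.71e-05). All 8 genes of a list of Ewing sarcoma markers had a mean of at least 1 FPKM. Each gene of the blood, muscle and endothelial lists was under 1 FPKM in every library with the exception of PTPRC in SK-N-MC, which was at 19.2 to 22.6 FPKM in all 4 of its libraries and at most 0.0173 FPKM in RD-ES, while CD3E was at 0 throughout. Rough depths, read from the smallest steps of the values, ran from 6.73 to 26.9 M reads. The shallowest library was RD-ES eKD2 replicate 1, which also stood apart in epithelial genes, with KRT8 at 8.24 FPKM and CDH1 at 3.5 FPKM against at most 1.38 and 0.160 FPKM in the other RD-ES libraries, and KRT5 at 0. The 4 epithelial genes summed to 12.7 FPKM there, to 1.78 FPKM in eKD2 replicate 2 and to 1.53 and 1.84 FPKM in the RD-ES controls, beside 4.93 to 6.28 FPKM in SK-N-MC. In bulk RNA, fewer cells with a transcript and less transcript per cell cannot be told apart.

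With at least 1 FPKM in the mean of the 2 control libraries taken as expressed, 21 of 88 members (23.9%) were expressed in RD-ES, whereas SK-N-MC expressed 20 of them (22.7%), beside 23.8% and 24.1% of all listed genes. Both lines expressed 15 of them, among them KCNA2, KCNAB2, KCNAB3, KCND1, KCNE4, KCNG1, KCNH2, KCNH3, KCNJ4, KCNJ11, KCNMB4, KCNN1, KCNQ5 and KCNT2. RD-ES alone expressed 6, among them KCNB2, KCNJ12, KCNK5, KCNMB3 and KCNS3, whereas SK-N-MC alone expressed KCNC4, KCNF1, KCNG3, KCNMA1 and KCNQ3. KCNC4 was just under the level in RD-ES, with a mean of 0.988 FPKM. In neither line did the other 62 members reach it.

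In RD-ES control cells the highest levels were those of KCNE4 (mean 13.9 ± 0.356 FPKM, SD, n = 2), KCNAB3 (13.2 ± 1.79) and KCNN1 (12.3 ± 0.855). KCNE4 was above KCNN1 in both libraries, whereas the libraries of KCNAB3 overlapped those of both other genes. KCNS3 (7.78 ± 0.215), KCNG1 (7.55 ± 2.30), KCND1 (6.74 ± 2.42) and KCNH2 (6.45 ± 0.846) followed, and their libraries overlapped too, except that those of KCNS3 all lay above those of KCNH2. KCNQ5 (4.17 ± 0.251), KCNMB4 (2.83 ± 0.0555) and KCNT2 (2.66 ± 0.191) completed the first 10. In SK-N-MC control cells KCNA2 (27.7 ± 2.42) and KCNN1 (26.5 ± 1.94) led, with overlapping libraries, before KCNMB4 (18.2 ± 1.07), KCNAB3 (16 ± 0.726) and KCNE4 (14 ± 0.0416), which did not overlap. KCNQ3 (12.9 ± 0.430), KCNQ5 (12.1 ± 0.198), KCNAB2 (9.24 ± 0.364), KCNC4 (7.37 ± 0.134) and KCNJ4 (6.06 ± 0.866) came next, and of these each was above the following one in both libraries. Of the first 5 genes of each line, KCNE4, KCNAB3 and KCNN1 stood in both lists.

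**Figure D1:**
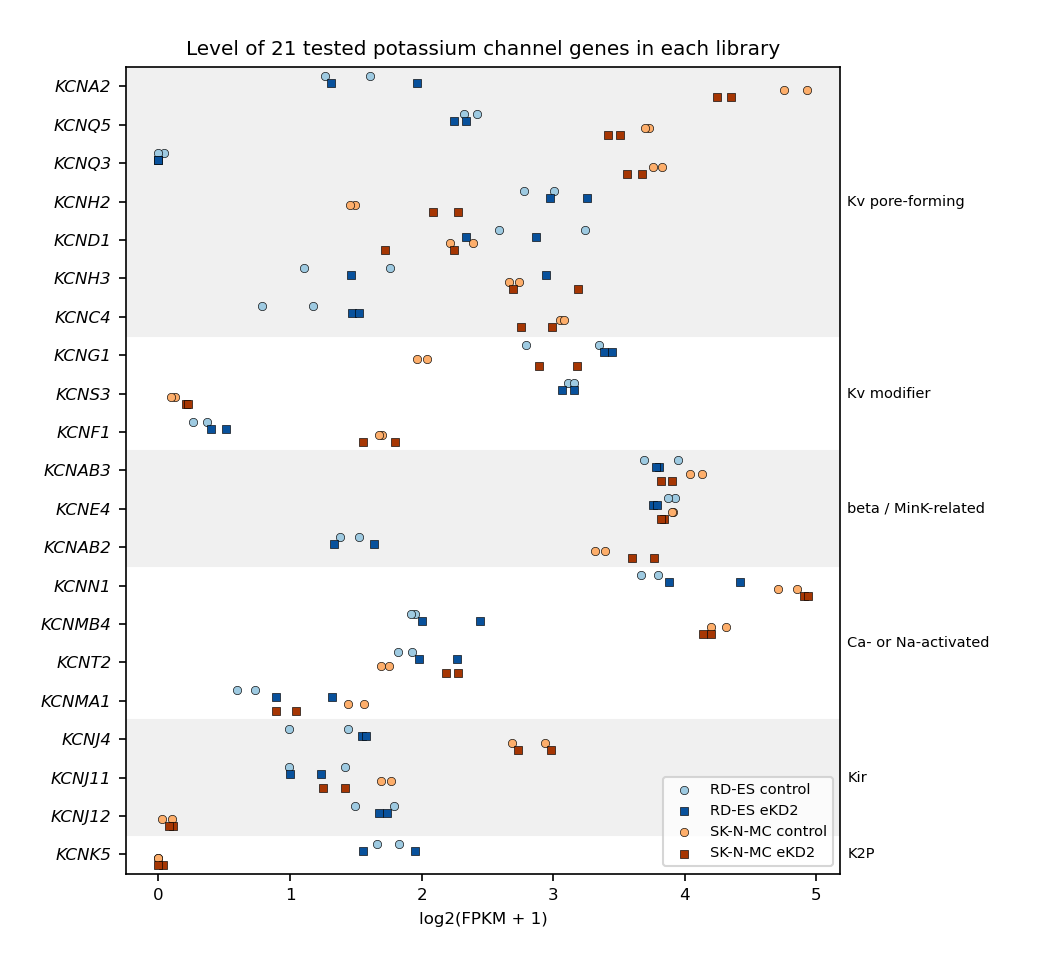
Level of 21 of the 23 tested potassium channel genes in each of the 8 libraries as log2(FPKM + 1), 1 point per library, ordered by channel class (Kv, voltage-gated; Kir, inwardly rectifying; K2P, tandem pore domain). KCNA2, KCNMB4 and KCNQ3 in the SK-N-MC libraries lie far to the right of the RD-ES libraries, and KCNS3, KCNK5 and KCNJ12 far to the left.

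Between the control cells, KCNQ3, KCNA2 and KCNMB4 were higher in SK-N-MC, whereas KCNS3, KCNH2 and KCNG1 were higher in RD-ES. The share of members that differed was close to that of all genes. A test was run on the 23 members whose 8 libraries averaged 1 FPKM or more, and 15 of them passed it between the control cells (limma, adjusted p under 0.05 over 15175 genes), which is 65.2% beside 57.8% of all genes tested. SK-N-MC was higher in 10 members (background 31.4%) and RD-ES in 5 (background 26.4%). The median difference over the 23 members, SK-N-MC minus RD-ES, was 0.52 on the log2(FPKM + 1) scale, beside 0.06 over all genes tested. This direction was not seen without the filter, where the median over 70 members was -0.00126, with 45.7% of them higher in SK-N-MC. The members added there all averaged under 1 FPKM. With a filter of 1 FPKM in any group, added after the data were seen, the median over 29 members was 0.42, with 62.1% higher. Among the tested members, KCNQ3, KCNS3, KCNK5 and KCNJ12 were under 0.2 FPKM in the control cells of 1 line and passed the filter only through the libraries in which they were high. KCNF1, at 0.202 to 0.428 FPKM in the RD-ES libraries, likewise passed it only through those of SK-N-MC. KCNMA1, at 0.512 to 1.5 FPKM in the RD-ES libraries, also needed those of SK-N-MC to reach the filter. With libraries scaled to a common median the median of all genes moved from 0.06 to -0.04, and the same 15 members passed with unchanged direction.

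Among the 29 pore-forming Kv genes, 9 were tested, 8 were expressed in each line and 5 were listed at 0 in every library. KCNA2, a Shaker-type delayed rectifier of axons, was at 1.40 and 2.05 FPKM in RD-ES control and at 26.0 and 29.4 FPKM in SK-N-MC control. That was a difference of 3.40 ± 0.234 (SE) on the log2(FPKM + 1) scale (adjusted p = 9.93e-05). KCNQ3, which pairs with KCNQ5 in the neuronal M-current channel, was at 12.6 and 13.2 FPKM in SK-N-MC control and at 0.0323 and 0 FPKM in RD-ES control (3.77 ± 0.122, adjusted p = 7.86e-06), and so was near 0 in RD-ES. Its relative KCNQ5 was present in both lines, at 4.35 and 3.99 FPKM in RD-ES control and at 12.3 and 12 FPKM in SK-N-MC control (1.35 ± 0.0935, adjusted p = 0.000103). KCNC4, a fast-inactivating Kv subunit, was at 0.725 and 1.25 FPKM in RD-ES control and at 7.28 and 7.47 FPKM in SK-N-MC control (2.09 ± 0.167, adjusted p = 0.000172). The reverse held for KCNH2, the hERG channel that repolarizes heart muscle. It was at 5.85 and 7.05 FPKM in RD-ES control and at 1.81 and 1.74 FPKM in SK-N-MC control (-1.42 ± 0.151, adjusted p = 0.000504).

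KCND1, an A-type channel, and KCNH3, a brain channel of the ether-a-go-go family, did not pass the test between the lines. KCND1 was at 5.02 and 8.45 FPKM in RD-ES control and at 3.65 and 4.26 FPKM in SK-N-MC control (-0.61, 95% interval -1.35 to 0.13, adjusted p = 0.133). For KCNH3 the values were 1.15 and 2.38 FPKM against 5.67 and 5.35 FPKM (1.27, 95% interval 0.06 to 2.48, adjusted p = 0.0687). Neither pair of groups overlapped, but duplicates of 1 line differed by about as much as the lines did for KCND1. KCNH3 shares 43 exonic bases with MCRS1 on the opposite strand, a gene with a mean of 64.4 FPKM, and the libraries did not mark strand, so part of its reads cannot be assigned.

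Modifier subunits change the gating of other Kv channels without forming a pore of their own, and KCNS3 and KCNG1 were higher in RD-ES while KCNF1 was higher in SK-N-MC. KCNS3 was at 7.63 and 7.93 FPKM in RD-ES control and at 0.0938 and 0.0707 FPKM in SK-N-MC control (-3.02 ± 0.130, adjusted p = 2.04e-05). KCNG1 was at 5.93 and 9.18 FPKM in RD-ES against 3.13 and 2.90 FPKM (-1.07 ± 0.20, adjusted p = 0.00493). KCNF1 was at 0.294 and 0.202 FPKM in RD-ES control and at 2.25 and 2.20 FPKM in SK-N-MC control (1.37 ± 0.187, adjusted p = 0.00136). Of 10 modifier genes 3 were tested and 5 were listed at 0 throughout. All 3 passed, beside 57.8% of all genes tested, but KCNS3 and KCNF1 reached the filter only through the line in which they were high. The summed level of the 10 was 14.7 and 18.1 FPKM in RD-ES control and 6.89 and 6.49 FPKM in SK-N-MC control, whereas that of the 29 pore-forming genes was 24.2 and 31.1 FPKM against 74.5 and 77.9 FPKM.

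Of the 7 beta and MinK-related subunit genes 3 were tested, and KCNAB2 alone passed between the lines. KCNE4, a small membrane subunit that inhibits several Kv channels, was at 14.2 and 13.7 FPKM in RD-ES control and at 14 FPKM in both SK-N-MC control libraries (0.01, 95% interval -0.16 to 0.18, adjusted p = 0.924). KCNAB3, a cytoplasmic Kv beta subunit with an aldo-keto reductase fold, was at 11.9 and 14.4 FPKM against 16.5 and 15.5 FPKM (0.27, 95% interval 0.00 to 0.53, adjusted p = 0.0753). Its reads may include those of an unnamed gene on the same strand with which it shares 252 exonic bases. KCNAB2, the beta subunit most abundant in brain, was at 1.88 and 1.60 FPKM in RD-ES control and at 8.98 and 9.49 FPKM in SK-N-MC control (1.90 ± 0.143, adjusted p = 0.000137). It overlaps 212 exonic bases of NPHP4 on the opposite strand (mean 8.71 FPKM).

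All 3 calcium-activated subunits that were tested were higher in SK-N-MC, as were 31.4% of all genes tested. Of these, KCNMA1 reached the filter only with the help of its SK-N-MC libraries. Untested subunits went both ways, KCNMB3 being higher in the RD-ES controls and KCNN3 and KCNN4 in the SK-N-MC controls. KCNN1, a small-conductance channel gated through calmodulin, was at 11.7 and 12.9 FPKM in RD-ES control and at 25.1 and 27.9 FPKM in SK-N-MC control (1.05 ± 0.178, adjusted p = 0.00326). KCNMB4, the neuronal beta subunit of the large-conductance (BK) channel, was at 2.87 and 2.79 FPKM against 18.9 and 17.4 FPKM (2.32 ± 0.153, adjusted p = 8.55e-05). The pore of that channel, KCNMA1, stayed far below its beta subunit, at 0.512 and 0.660 FPKM in RD-ES control and at 1.95 and 1.71 FPKM in SK-N-MC control (0.84 ± 0.216, adjusted p = 0.0172), and its call was lost without SK-N-MC control replicate 1 (0.78, adjusted p = 0.0522). Sodium-activated KCNT2 did not pass, at 2.79 and 2.52 FPKM against 2.23 and 2.38 FPKM (-0.15, 95% interval -0.50 to 0.20, adjusted p = 0.414).

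Kir and K2P channels were sparse in both lines. Of 15 Kir genes 3 were tested and 4 were listed at 0 in every library. KCNJ4, a strong inward rectifier of brain and heart, was at 0.988 and 1.72 FPKM in RD-ES control and at 5.45 and 6.68 FPKM in SK-N-MC control (1.60 ± 0.195, adjusted p = 0.000870). KCNJ12, another strong rectifier, was near 0 in SK-N-MC, at 2.46 and 1.82 FPKM against 0.0190 and 0.0755 FPKM (-1.58 ± 0.201, adjusted p = 0.00105), and is uncertain because KCNJ18 is a near-identical copy. From the 15 K2P genes only KCNK5, an acid-sensitive leak channel of kidney epithelium, was tested. It was at 2.16 and 2.54 FPKM in RD-ES control and was listed at 0 in both SK-N-MC control libraries, where no K2P gene was expressed (-1.74 ± 0.218 on the log2(FPKM + 1) scale, adjusted p = 0.000967). For genes near 0 in 1 line these differences depend on the pseudocount, and with 0.1 in place of 1 they were 6.82 for KCNQ3, -5.44 for KCNS3, -4.61 for KCNK5, -3.94 for KCNJ12 and 2.75 for KCNF1.

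**Figure D2:**
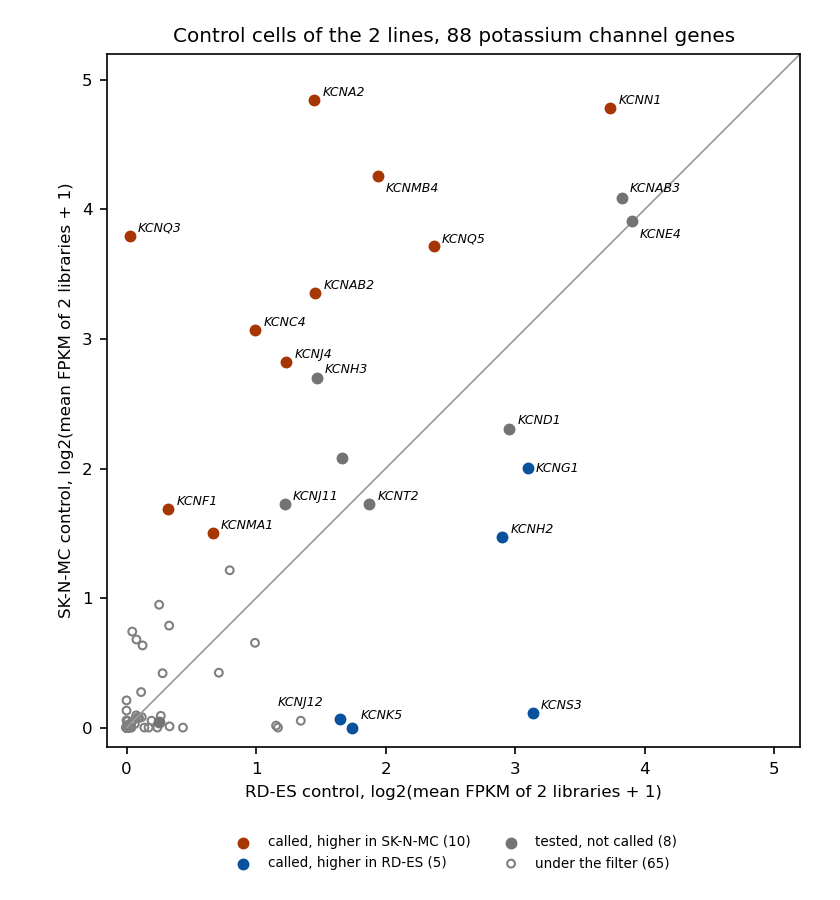
Control cells of both lines compared for all 88 potassium channel genes, with log2(mean FPKM of 2 libraries + 1) of RD-ES on the x axis and of SK-N-MC on the y axis, and equal levels on the diagonal line. Most tested genes are labelled. The 10 genes called higher in SK-N-MC lie above the line, the 5 called higher in RD-ES below it, and most of the 65 untested genes lie near 0 in both lines.

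The 65 members that were not tested had means of up to 0.974 FPKM over the 8 libraries. Every library was under 0.1 FPKM for 37 of the 88 members, and 18 were listed at 0 throughout, among them KCNA1, KCNA3 and KCNA4 of the Shaker family and KCNJ9 and KCNJ16 of the Kir family. An entry of 0 in this kind of table can also be a failed estimate. A level of at least 1 FPKM in any library was reached by 8 untested genes, among them KCNB2, KCND2, KCNG3, KCNJ14, KCNMB3, KCNN3 and KCNN4. KCNB2 and KCNMB3, expressed in RD-ES alone, were at 1.07 to 1.77 FPKM in its control libraries and at most 0.0636 FPKM in those of SK-N-MC. KCNMB3 shares 3403 exonic bases with PIK3CA on the opposite strand (mean 21.5 FPKM), so part of its reads cannot be assigned. KCNJ11 was tested but met no rule for separate description, and was at 0.993 to 2.40 FPKM over all libraries without passing any comparison. KCNG3 lay closest below the filter.

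Knockdown of the LOXHD1 enhancer left the channel repertoire of RD-ES cells without a called change. No member of the 23 passed the test between RD-ES eKD2 and control (limma), where 0.343% of all genes tested did, and 2 members had an unadjusted p under 0.05, or 8.70% beside 12.3% of all genes. The median change was 0.20 on the log2(FPKM + 1) scale, beside 0.03 over all genes, and 16 members were higher (69.6% beside 56.2% of all genes) and 7 lower. After quantile normalization 13 were higher, with a median of 0.14, and without the filter the median over 70 members was 0.0105. The groups did not overlap for 11 members (47.8% beside 39.3% of all genes), 10 of them higher in eKD2 (43.5% beside 24.2% of all genes) and 1 lower (4.35% beside 15.1%). Leaving out control replicate 1 lowered the median to 0.11, as did leaving out eKD2 replicate 1, and it was 0.08 when eKD2 replicate 2 was left out. Without eKD2 replicate 1, the library with raised KRT8 and CDH1, 1 member passed the test.

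KCNC4, one of the members with an unadjusted p under 0.05, was at 0.725 and 1.25 FPKM in control and at 1.78 and 1.87 FPKM in eKD2 (0.52 ± 0.167, adjusted p = 0.311).

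Other named members did not pass in RD-ES either. KCNH3 was at 6.69 FPKM in eKD2 replicate 1 and at 1.76 FPKM in replicate 2, on either side of the controls at 1.15 and 2.38 FPKM (0.77 ± 0.495, adjusted p = 0.572). Without eKD2 replicate 1 its difference was 0.04. KCNN1 was at 20.4 FPKM in that library and at 13.7 FPKM in the other, both above the controls at 11.7 and 12.9 FPKM (0.42 ± 0.178, adjusted p = 0.422), and its difference without replicate 1 was 0.15. KCNMA1 was at 0.512 and 0.660 FPKM in control and at 0.861 and 1.5 FPKM in eKD2 without overlap (0.44 ± 0.216, adjusted p = 0.475). The part of the epithelial transcripts of eKD2 replicate 1 in these values was not tested. Of the members most abundant in RD-ES, KCNE4 was at 12.6 and 12.8 FPKM in eKD2 (-0.12, 95% interval -0.30 to 0.05) and KCNS3 at 7.91 and 7.38 FPKM (-0.02, 95% interval -0.34 to 0.29).

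The same comparison in SK-N-MC gave no called member either. Of the 23 genes 0 passed (limma, smallest adjusted p = 0.162, background 0.323%), and 5 had an unadjusted p under 0.05, or 21.7% beside 13.0% of all genes. The median change was 0.02, beside -0.0049 over all genes. With 12 members higher (52.2% beside 47.6% of all genes) and 11 lower the directions were nearly even, and after quantile normalization 9 were higher with a median of -0.06. Without SK-N-MC eKD2 replicate 2 the median was -0.07, and without SK-N-MC control replicate 1 it was -0.01. The groups did not overlap for 16 members (69.6% beside 47.3% of all genes), 7 higher in eKD2 (30.4% beside 22.2% of all genes) and 9 lower (39.1% beside 25.1%).

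The highest differences belonged to KCNG1 and KCNH2, both of which were lower in SK-N-MC control than in RD-ES control. KCNG1 was at 3.13 and 2.90 FPKM in SK-N-MC control and at 6.41 and 8.08 FPKM in SK-N-MC eKD2 (1.03 ± 0.20, unadjusted p = 0.00204, adjusted p = 0.162). KCNH2 was at 1.81 and 1.74 FPKM against 3.26 and 3.85 FPKM (0.71 ± 0.151, unadjusted p = 0.00320, adjusted p = 0.175). Both eKD2 libraries lay above both controls for each gene, and over all alternatives the smallest adjusted p was 0.140 for KCNG1 and 0.144 for KCNH2. KCNT2 was at 2.23 and 2.38 FPKM in control and at 3.54 and 3.85 FPKM in eKD2 (0.51 ± 0.144, adjusted p = 0.249).

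Values were lower with eKD2 for KCNQ5, at 12.3 and 12 FPKM in control and at 10.4 and 9.70 FPKM in eKD2 (-0.25 ± 0.0935, adjusted p = 0.343), and for KCNMA1, at 1.95 and 1.71 FPKM against 0.860 and 1.07 FPKM (-0.53 ± 0.216, adjusted p = 0.384). KCNA2 and KCNAB3 are the members that the study placed in its own list of genes specific to this sarcoma. The study drew that list from genes that fell with knockdown of the fusion in earlier data on Ewing lines, SK-N-MC among them. It reports the list as a whole as negatively enriched in eKD2 cells of both lines. That report is no independent evidence of direction for these members. KCNA2, which with KCNN1 had the highest level of the members in SK-N-MC control cells, was at 26.0 and 29.4 FPKM in control and at 18 and 19.4 FPKM in eKD2, with no overlap (-0.54, 95% interval -1.11 to 0.03, unadjusted p = 0.0602, adjusted p = 0.408, limma). The RD-ES controls, at 1.40 and 2.05 FPKM, were overlapped by the eKD2 libraries at 2.91 and 1.49 FPKM (0.20, 95% interval -0.37 to 0.78), a difference that changed sign to -0.12 without eKD2 replicate 1. KCNAB3 was at 16.5 and 15.5 FPKM in SK-N-MC control and at 14 and 13.1 FPKM in eKD2 (-0.22 ± 0.107, adjusted p = 0.459). In RD-ES its eKD2 libraries, at 13.0 and 12.8 FPKM, fell between the controls at 11.9 and 14.4 FPKM (-0.02, adjusted p = 0.970), and the sign turned without control replicate 2 (0.11).

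**Figure D3:**
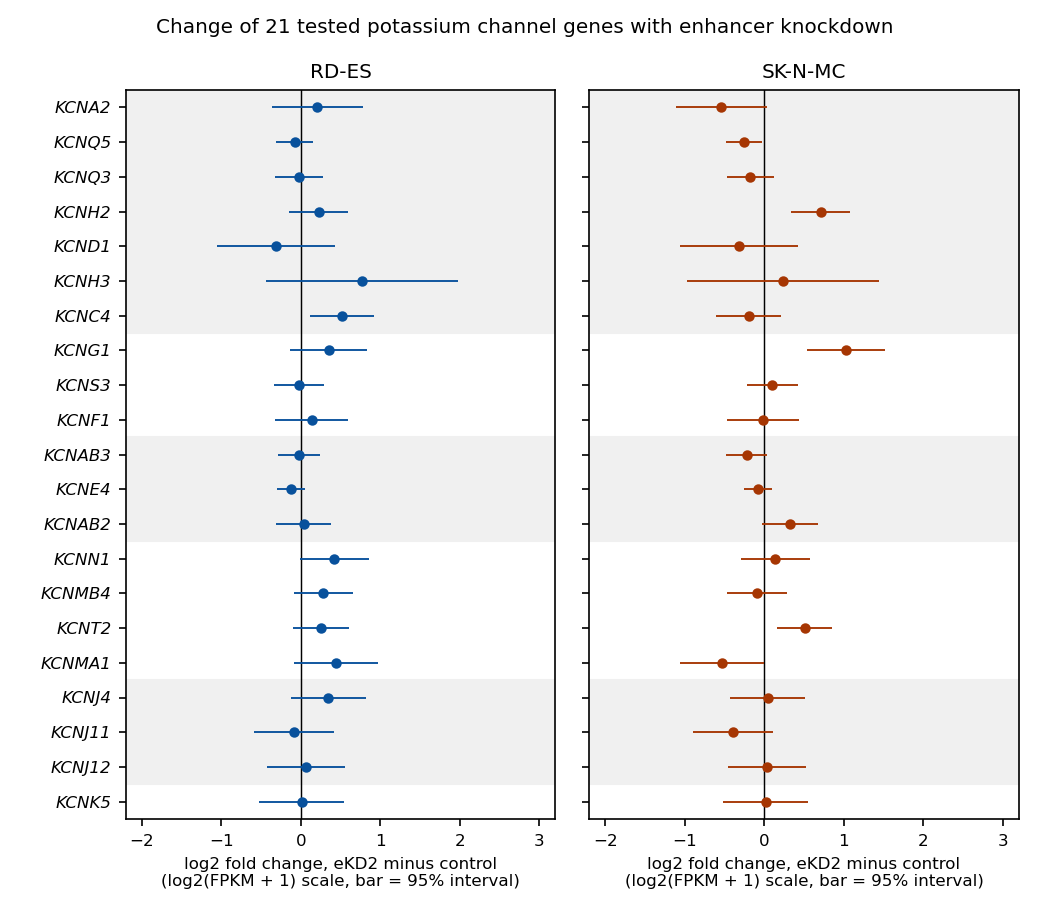
Difference between eKD2 and control on the log2(FPKM + 1) scale for 21 of the 23 tested potassium channel genes in RD-ES (left) and SK-N-MC (right), with points for the limma estimate and bars for its 95% interval before any adjustment, in the class order of the plot of levels. Of the genes shown, only KCNC4 in RD-ES and KCNG1, KCNH2, KCNT2, KCNQ5 and KCNMA1 in SK-N-MC have bars that leave out 0, and none of these passed the adjusted test.

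Whether the lines answered differently was tested by subtracting the RD-ES change from the SK-N-MC change. No member of the 23 passed (limma, background 0.244%), and 3 had an unadjusted p under 0.05, or 13.0% beside 13.5% of all genes. Among them were KCNMA1 (-0.97 ± 0.306, adjusted p = 0.280) and KCNC4 (-0.71 ± 0.236, adjusted p = 0.294). KCNMA1 was higher with eKD2 in both RD-ES libraries and lower in both SK-N-MC libraries. For KCNA2 and KCNG1 the differences between the changes were -0.75 ± 0.331 (adjusted p = 0.407) and 0.68 ± 0.283 (adjusted p = 0.376).

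In both lines the groups were free of overlap in the same direction for 5 of 23 members (21.7% beside 9.67% of all genes). Among these were KCNG1, KCNN1 and KCNT2, higher with eKD2, and KCNE4, lower. The direction was opposite for KCNC4, KCNMA1 and KCNMB4, 3 of 23 (13.0% beside 10.2%). KCNMB4 was at 3.0 and 4.43 FPKM in RD-ES eKD2, above the controls at 2.87 and 2.79 FPKM. In SK-N-MC its eKD2 libraries, at 17.37 and 16.58 FPKM, were barely clear of the controls at 18.93 and 17.42 FPKM (-0.09 ± 0.153, adjusted p = 0.868, limma). With 2 libraries against 2, an exact permutation test of a single gene cannot give a two-sided p below 0.333, so these counts describe the libraries without testing them.

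On the FPKM scale, the summed levels of some classes separated eKD2 from control libraries and those of others did not. The 29 pore-forming Kv genes together gave 74.5 and 77.9 FPKM in the SK-N-MC controls, above the 61.4 and 68.0 FPKM of the eKD2 libraries, and KCNA2 made up most of that difference. For RD-ES the order was the opposite, with 24.2 and 31.1 FPKM in control cells below 35 and 36 FPKM after knockdown. That order leaned on KCNH3 in eKD2 replicate 1, the library with raised KRT8 and CDH1. KCNH3 was at 6.69 FPKM there, at 1.76 FPKM in eKD2 replicate 2 and at 1.15 and 2.38 FPKM in the controls. The 12 calcium- or sodium-activated genes were also higher after knockdown, at 31.3 and 25 FPKM beside 19.9 and 21.2 FPKM for RD-ES and at 53.6 and 53.2 FPKM beside 49.8 and 51.4 FPKM for SK-N-MC, and the highest RD-ES value was that of the library with raised KRT8 and CDH1. Modifier genes reached 9.85 and 11.8 FPKM in SK-N-MC after knockdown, of which KCNG1 gave most. The 7 beta and MinK-related genes summed to slightly less after knockdown in both lines, without overlap. Their RD-ES eKD2 sums, 27.7 and 27.5 FPKM, lay below the 28.2 and 30.0 FPKM of the controls. For SK-N-MC the eKD2 sums of 38.6 and 39.0 FPKM lay below control sums of 39.7 and 39.2 FPKM. The 15 K2P genes never summed to more than 3.86 FPKM, and their groups overlapped in both lines. These sums carry no test, since each rests on a few abundant genes.

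**Figure D4:**
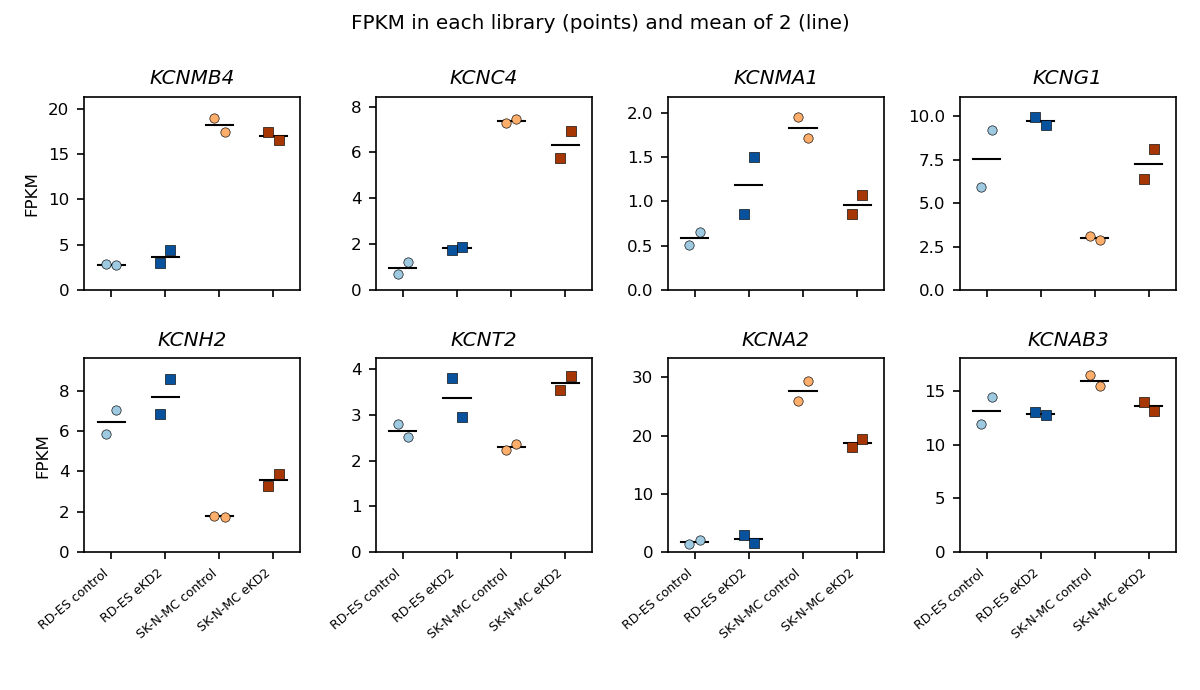
FPKM in each library (points) and the mean of 2 libraries (line) for 8 potassium channel genes in the 4 groups, each panel with its own linear axis from 0. KCNMB4 is higher in every SK-N-MC library than in any RD-ES library, KCNG1 and KCNH2 are higher in SK-N-MC eKD2 than in SK-N-MC control, and KCNA2 is lower there.

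Other genes of potassium transport were followed as 39 further genes, of which 21 were tested. They comprise partners of the channels such as the KCNIP and LRRC proteins, the sodium pump with its FXYD regulators and the cation-chloride cotransporters. None of the 21 passed with eKD2 in either line (limma, smallest adjusted p = 0.222, reached in SK-N-MC), and 2 and 4 had an unadjusted p under 0.05. Between the control cells 13 passed (61.9% beside 57.8% of all genes), 7 higher in SK-N-MC (33.3% beside 31.4%) and 6 lower (28.6% beside 26.4%). ATP1B3, a beta subunit of the sodium pump, was at 299 and 275 FPKM in RD-ES control and at 495 and 470 FPKM in SK-N-MC control (0.75 ± 0.0835, adjusted p = 0.000614). FXYD6, a regulator of the pump, was lower in SK-N-MC, with 27.2 and 27.1 FPKM against 43.6 and 54.0 FPKM (-0.81 ± 0.109, adjusted p = 0.00126). With eKD2, ATP1B3 was at 632 and 574 FPKM in SK-N-MC (0.32 ± 0.0835, adjusted p = 0.222) and at 237 and 264 FPKM in RD-ES (-0.20 ± 0.0835, adjusted p = 0.420). ATP1B3 was thus above every member in every library, the highest value of a member being 29.6 FPKM for KCNN1.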

How the data were processed

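Poly-A RNA of 8 libraries was sequenced as single-end reads without strand information. The authors aligned the reads to GRCh37 with STAR and deposited FPKM values per gene and library made with Cuffnorm. Read counts, which the study tested with DESeq2, were not analysed here, so the FPKM values were tested instead. Depth was estimated roughly from the smallest steps between values. For each symbol the row of highest mean was used. The 15175 genes that averaged 1 FPKM or more were fitted together over the 4 groups with limma 3.58.1 in R 4.3.3 on log2(FPKM + 1), with a trended prior (lmFit, eBayes) and Benjamini-Hochberg adjustment, called at 0.05. The fold changes understate the change of low genes. The fit was tested on simulated data. The members and gene lists were chosen with earlier results of these data known. Values are given for members called in any contrast, the 5 largest differences of each contrast, the 10 highest in each line, KCNAB3 and KCNA2, the 3 highest other transport genes and LOXHD1. Other genes are named only in lists or counts, and some genes that meet these rules are not reported here. Alternatives changed the pseudocount, filter, scaling, trend, row choice, lines fitted, replicate block and libraries. Gene positions, exons and GGAA runs came from the GRCh37 genome and its GENCODE annotation.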

Additional observations from a re-analysis of the deposited data

How the results depend on the processing

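No member passed the eKD2 test in either line, and no difference between the lines' changes passed, in any alternative except 1: without RD-ES eKD2 replicate 1 the number called in RD-ES was 1 (range over libraries left out 0 to 1). Where a group was left with 1 library, that library was assumed to vary like the other groups. Between control cells, 25 of 70 members passed without the filter (35.7% beside 30.8% of all genes), the 15 called with it and 10 more, and 14 to 17 of 23 passed as libraries were left out (60.9% to 73.9%, beside 45.6% to 59.7% of all genes). Medians moved more. In RD-ES eKD2 the median was 0.28 with a pseudocount of 0.1, 0.0105 without the filter, 0.14 with a filter on any group (added after the data were seen) and 0.14 after quantile normalization, and 0.0829 to 0.20 with libraries left out. In SK-N-MC eKD2 it was -0.0604 after quantile normalization and -0.0690 to 0.0178 with libraries left out. Between control cells it was 0.79 with a pseudocount of 0.1, -0.00126 without the filter, 0.42 with the group filter, 0.43 after median scaling, 0.42 after quantile normalization and 0.34 to 0.73 with libraries left out. For the difference of the changes it was -0.0127 without the filter and -0.33 to -0.15 with libraries left out. Without the filter, 24, 32 and 46 of 70 members had groups without overlap in RD-ES, SK-N-MC and between the lines (34.3%, 45.7% and 65.7%, beside 27.9%, 34.8% and 56% of all genes). With libraries left out, the RD-ES difference ran from -0.15 to 0.11 for KCNAB3 and from -0.12 to 0.53 for KCNA2, so that both signs turned. The cause of these shifts was not tested. Of the other values of single genes, 552 kept direction and side of the threshold. Replicate numbers are shared between groups, but same-numbered libraries barely deviated together (r = 0.056, 0.0274 and 0.0505 in 3 pairs of groups). With the replicate number as a block, 0 members passed in RD-ES and SK-N-MC eKD2 and 16 between the lines, and the calls over all genes were 11 and 5 in place of 52 and 49. Depth is known only roughly, and a 0 may be a failed estimate.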
